A study of Mus musculus with 8 samples.

Results

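The genes described here encode the protein subunits of the cytosolic ribosome, measured by RNA-seq in mouse myotubes, the multinucleated muscle fibres that form in culture. They were taken by symbol: protein-coding genes named Rpl or Rps followed by a digit, together with Rplp0, Rplp1, Rplp2 and Rpsa, without the S6 kinases, pseudogenes and predicted genes. Of the 35275 genes in the deposited table, 86 met this rule. They comprise 46 genes of the large subunit, 31 of the small subunit, 8 paralogs of these and Rps19bp1, whose name fits the rule although its product binds a ribosomal protein and is not a subunit. Levels are in FPKM (fragment counts scaled for gene length and for library size). A gene was tested where its mean over the 8 libraries reached 1 FPKM, and 82 of the 86 did.

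The cytosolic ribosome joins a small subunit, which reads the mRNA, to a large subunit, which links amino acids, and each subunit holds ribosomal RNA and a set of proteins. Many of the mRNAs for these proteins begin with a run of pyrimidines, the 5′ terminal oligopyrimidine (TOP) tract, through which mTOR signalling controls their translation. In skeletal muscle, ribosome production is known to rise during growth and to fall during atrophy.

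Myotubes were made from primary myogenic progenitor cells (MPCs) of the strain C57BL6/J. In the MPC EV groups they were given extracellular vesicles (EVs), small membrane particles released by cells, from proliferating primary MPCs, and in the control groups EVs taken from growth media. RNA was collected at 12 h and at 24 h, with 2 libraries for each treatment and time. As every myotube culture received some EV preparation, a lower level with MPC EVs cannot be told apart from a higher level with the control one. Separate cultures are not stated for the replicates, so the spread behind each p-value may be technical.

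The libraries held 16.3 to 20.1 M fragments (M for mega), as estimated from the step size of low values. The summed level of 8 myotube markers lay between 9517 and 17538 FPKM in every library. The 5 fibroblast markers summed to 4.44 to 10.5 FPKM over the libraries, most of it Col1a1, and Lum was below 0.1 throughout. The 4 macrophage markers summed to 0.58 to 1.79, nearly all of it Cd68, with Adgre1, Csf1r and Ptprc below 0.1. The 3 adipocyte markers summed to 0.0838 to 0.814, mostly Fabp4, with Adipoq below 0.1, the 3 endothelial markers to 0.091 to 0.312 and the 4 pericyte and smooth muscle markers to 1.68 to 4.63. Control 12 h replicate 2 stood apart: its correlation with its partner across genes was 0.947, against 0.992 to 0.996 for the other pairs. Its mRNAs encoded by mitochondrial DNA made up 1.56% of the FPKM total, against 2.09% to 4.81% in the other 7 libraries. Results at 12 h and over time in the control myotubes are therefore given with and without it.

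The start regions of 9 genes that recur below are printed because the first bases of many ribosomal protein mRNAs carry the TOP tract, and because they show how far the Rps27 copies differ there. Each runs from 30 bases before to 20 bases from the RefSeq transcript start (GRCm38.p6), and the capitals mark its longest run of C and T, the first where runs tie. Rps6 (minus strand), Rps9 (plus), Rps12 (minus) and Rpl12 (plus) lie at chr4:86857348-86857397, chr7:3704011-3704060, chr10:23787190-23787239 and chr2:32961682-32961731. Rps27 (minus), the first of the RefSeq starts of Rps27l (plus) and Rps27rt (minus) lie at chr3:90213629-90213678, chr9:66946056-66946105 and chr9:114982720-114982769. Rpl7l1 (minus) and Rpl35 (minus) lie at chr17:46782637-46782686 and chr2:39005112-39005161.
Rps6: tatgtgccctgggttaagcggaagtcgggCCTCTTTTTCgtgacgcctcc
Rps9: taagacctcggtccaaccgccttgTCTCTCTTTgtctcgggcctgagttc
Rps12: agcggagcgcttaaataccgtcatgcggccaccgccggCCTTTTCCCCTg
Rpl12: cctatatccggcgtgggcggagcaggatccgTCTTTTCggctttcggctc
Rps27: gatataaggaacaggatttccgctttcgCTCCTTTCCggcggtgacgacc
Rps27l: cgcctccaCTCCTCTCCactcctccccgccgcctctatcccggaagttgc
Rps27rt: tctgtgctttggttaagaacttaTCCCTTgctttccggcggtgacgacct
Rpl7l1: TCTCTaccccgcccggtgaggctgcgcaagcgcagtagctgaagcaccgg
Rpl35: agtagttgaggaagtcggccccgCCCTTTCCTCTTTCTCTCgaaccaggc
The transcript starts at base 31 of each line, so the capitals of Rps27l, Rps27rt and Rpl7l1 lie wholly before it and are not in the mRNA. In Rps27rt a tied run of 6 bases, ctttcc, begins at base 31 and is in the mRNA. The capitals of Rpl12 and Rps12 begin after the start, at bases 32 and 39. The longest run was 18 bases in Rpl35, 11 in Rps12, 10 in Rps6, 9 in each of Rps9, Rps27 and Rps27l, 7 in Rpl12, 6 in Rps27rt and 5 in Rpl7l1. RefSeq start regions were matched for 66 of the 86 genes. A run of at least 8 bases of C and T within 25 bases of a start was present for 33 of the 66, against 22.3% of all 27025 genes with such a region. The letters CTTTCC on the gene's strand occurred between 250 bases before and 50 bases after the start in 40.9% of the 66, against 16.0% of all genes. CCGGAAG, the core bound by ETS factors, occurred on either strand in 39.4%, against 9.93%. AAGATGGC, the core bound by YY1, occurred on either strand in 9.09% against 3.19%, and TATAAA on the gene's strand in 9.09% against 9.77%. These matches describe the letters in the windows and are not evidence of binding.

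Together the 86 genes made up 13.7% and 15.5% of the FPKM total in the control 12 h libraries and 12.4% and 11.7% with MPC EVs at 12 h. At 24 h the shares were 17.0% and 16.2% in control and 15.4% and 15.0% with MPC EVs. The MPC EV libraries lay below the control libraries at both times, and the lowest shares of all were those of MPC EV 12 h. Rows with a matching symbol that are not protein-coding, 239 pseudogenes and 6 others, held 0.0717% to 0.115% of the total. How the authors' counting divided reads between near-identical copies is not given in the sources used here, so levels of genes with such copies are uncertain.

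**Figure D1:**
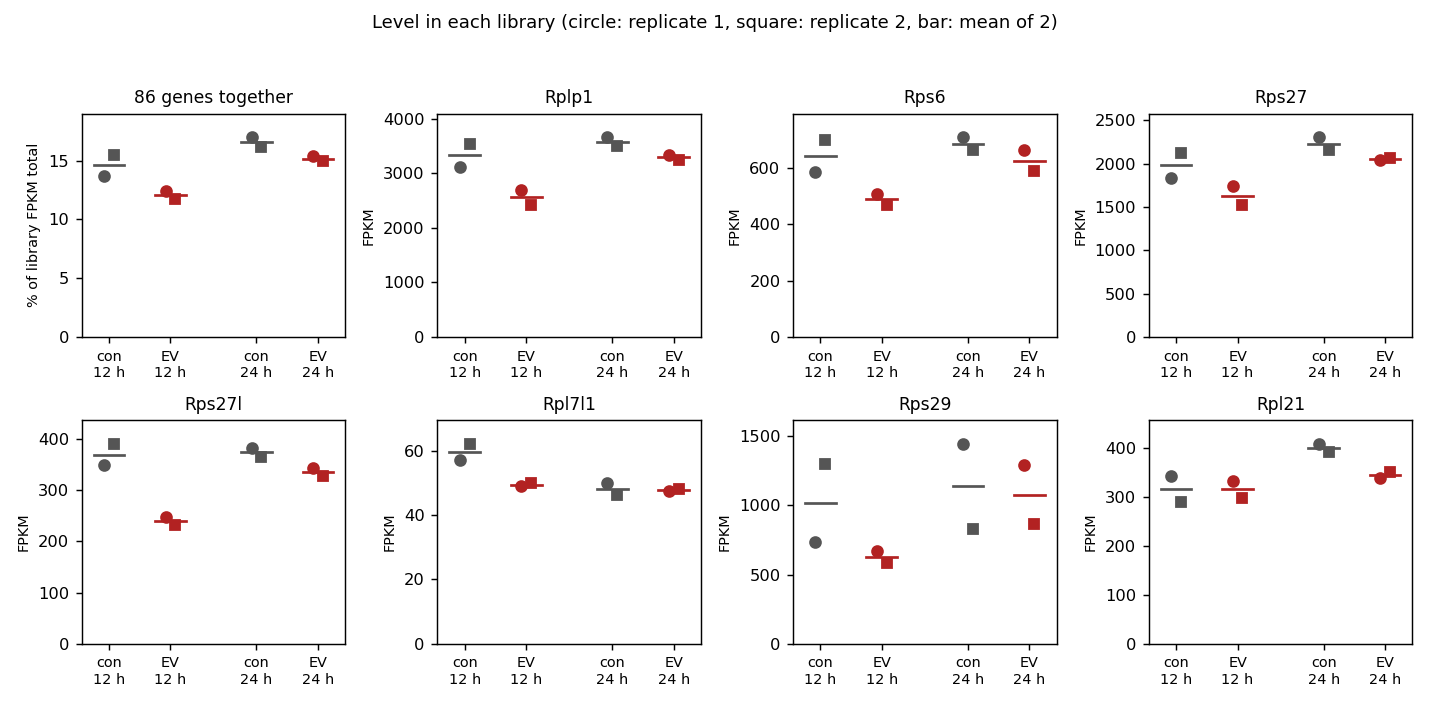
Level in each library for the 86 genes together (percent of the library's FPKM total) and for 7 genes (FPKM), with both axes starting at 0; circles are replicate 1, squares replicate 2 and bars the mean of the 2 libraries in control (con, grey) and MPC EV (EV, red) myotubes at 12 h and 24 h. The share was lowest in the MPC EV 12 h libraries, at 12.4% and 11.7%, while the replicates of Rps29 were far apart in 3 of the 4 groups.

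Levels per gene length ranged widely. The 5 genes with the highest mean over the 8 libraries were Rplp1, which encodes an acidic protein of the ribosomal stalk (mean 3193 FPKM), Rps2 (2369), Rps27 (1975), Rpl41 (1741) and Rps12 (1629). The lowest of the tested genes were Rps27rt (mean 12.0 FPKM), Rpl23a (35.9), Rps19bp1 (50.1), Rpl7l1 (51.2) and Rpl35 (78.4). Levels compared between genes depend on the gene length the authors divided by, which is not given in the sources used here.

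Of the untested genes 3 were paralogs that are known from special tissues. Rpl10l, a testis form of Rpl10, was listed at 0 in every library. Rpl3l, the form of Rpl3 found in mature striated muscle, had at most 0.183 FPKM, which is about 5 fragments. Rpl39l, a testis form of Rpl39, had at most 0.207 FPKM, or about 3 fragments. In the same libraries Rpl3 lay between 525 and 753 FPKM, Rpl10 between 1045 and 1550 and Rpl39 between 365 and 639. The only subunit gene under the filter was Rpl24, with a mean of 0.791 FPKM and an estimated 4 to 19 fragments per library, and 47.0% of its exon bases in GENCODE vM21 also belong to the predicted gene Gm28037.

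MPC EVs at 12 h were compared with control EVs to ask how the vesicles changed the myotubes' RNA early on. Ribosomal protein mRNAs were lower with MPC EVs in nearly every case. With all 8 libraries, 38 of the 82 tested genes fell, none rose and 44 did not pass (limma with Benjamini-Hochberg adjustment, threshold 0.05), while among all 10981 tested genes 14.3% fell and 4.36% rose. The median change of the 82 was -0.36 on the log2(FPKM + 0.5) scale, or -21.8%, against a median of -0.12 over all genes, and 81 of the 82 were negative. The large subunit had 19 of 45 genes that fell (median -0.33), the small subunit 16 of 31 (median -0.38) and the paralogs 2 of 5 (median -0.27).

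Both MPC EV 12 h libraries lay below both control 12 h libraries for 81 of the 82 genes, which was the case for 45.0% of all tested genes. The exception was Rpl21, with 343 and 289 FPKM in control and 333 and 299 with MPC EVs. For 80 of the 82 the MPC EV 12 h libraries were also the lowest 2 of all 8, against 25.6% of all genes. MPC EV 12 h replicate 2 was the lowest library for 79 genes. The highest library was control 24 h replicate 1 for 51 genes, control 12 h replicate 2 for 20 and control 24 h replicate 2 for 10. For these counts of highest and lowest libraries the share of all tested genes was not computed, so they describe these genes alone.

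**Figure D2:**
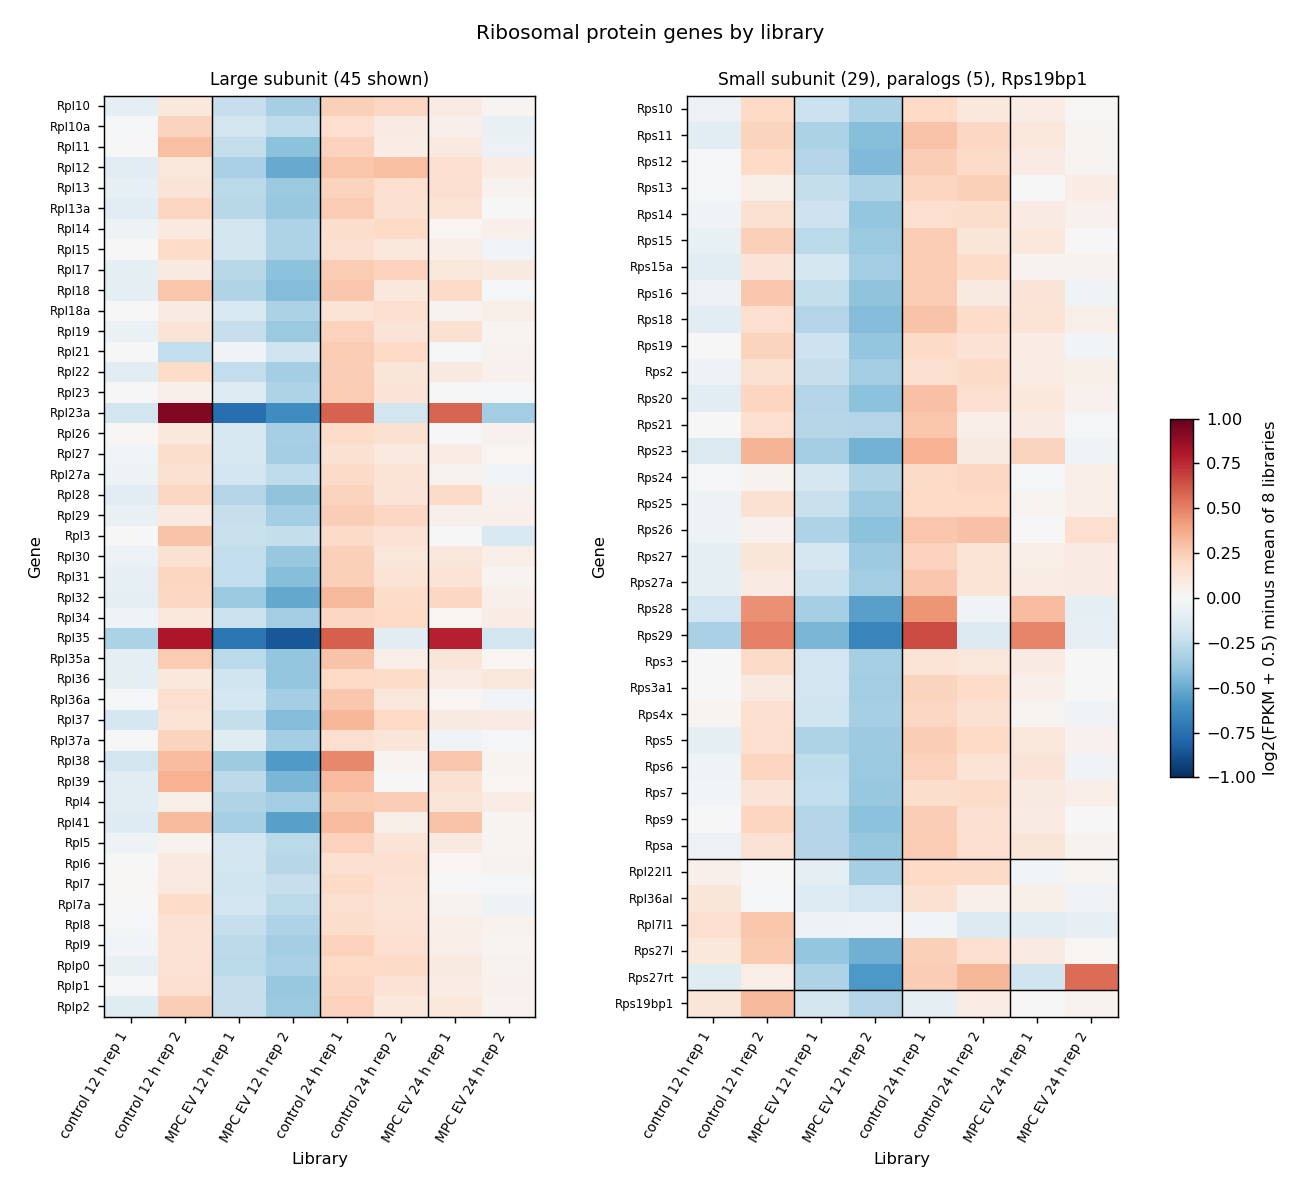
Heat map of 80 of the tested genes (rows, by role) in the 8 libraries (columns, replicates side by side), coloured by log2(FPKM + 0.5) minus the gene's mean over the 8 libraries, red above and blue below and limited to 1 in each direction. Both MPC EV 12 h columns are blue for nearly all genes, while Rpl23a, Rpl35, Rps28 and Rps29 differ strongly between replicates.

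The size of the 12 h difference rested partly on the library that stands apart. Without control 12 h replicate 2, the median of the 82 was -0.25 (-15.7%), against -0.10 over all genes, and 9 genes fell and none rose, against 10.4% and 5.75% of all tested genes. In that fit a fall was thus called about as often among these genes as among all tested genes. All 82 were negative and all 82 lay lower than the remaining control library in both MPC EV libraries, which was so for 57.1% of all genes. The 9 were Rpl7, Rpl9, Rpl36al, Rps4x, Rps7, Rps9, Rps12, Rps27l and Rps19bp1, and all of them but Rpl36al were among the 38. Without control 12 h replicate 1 the number that fell was 78, against 31.8% of all tested genes, and the median was -0.45. Calls were lost across all genes when other libraries were left out. Without MPC EV 12 h replicate 2 none of the 82 passed (median -0.29), against 1.81% of all genes that fell, and without MPC EV 12 h replicate 1 only 1 did (median -0.41), against 1.29%. Without a 24 h library, which leaves the median as it was, 1 of the 82 passed each time, against 4.33% and 4.41% of all genes (control replicates 1 and 2) and 4.89% and 5.11% (MPC EV replicates 1 and 2).

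The scaling between libraries mattered as well. The median over all genes lay at -0.12, and scaling each library to a common median ratio moved it to -0.0033. On that scale the 82 genes had a median of -0.23, and 1 of them, Rps27l, fell, against 5.05% of all genes. Relative to the median of all genes the ribosomal protein genes lay at -0.24 before and -0.23 after the scaling. Because the scaling divides all genes of a library by the same factor, this difference could hardly change and is no test of it. When each library's dependence on GC content and transcript length was regressed out, their median was -0.14, and again Rps27l alone fell, against 6.17% of all genes. This correction leaves a shift shared by all genes in place, and the median over all genes is not given for it. How far the 82 genes lay from all genes under it therefore cannot be read. The same holds for the medians with this correction given below. The spread within groups was much the same for these genes as for others, with a median residual SD of 0.099 (log2) against 0.11 over all genes.

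**Figure D3:**
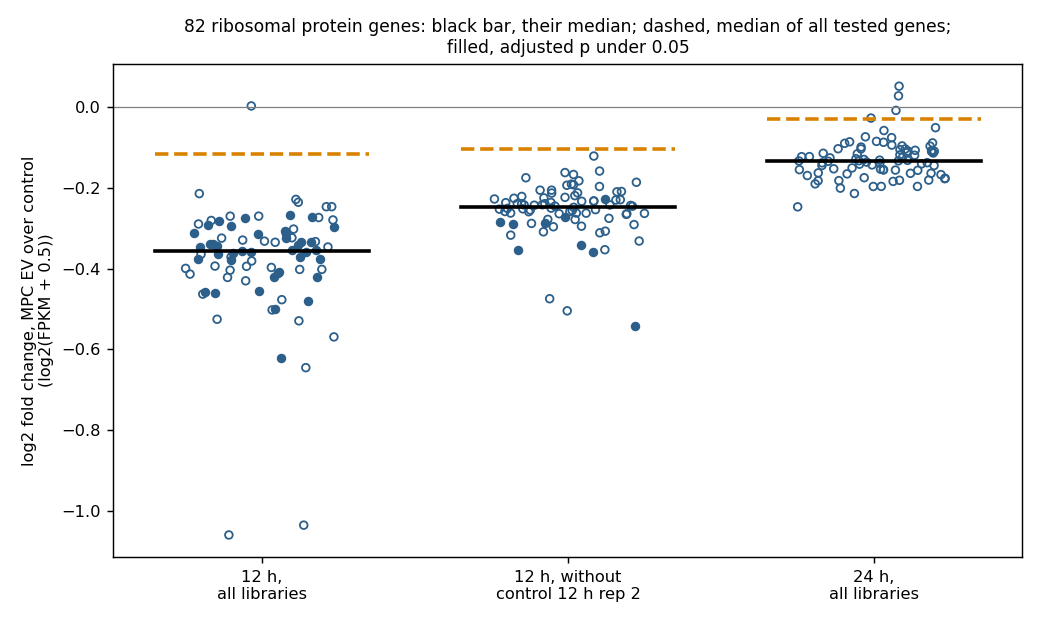
Log2 fold change of MPC EV over control for each of the 82 genes at 12 h with all libraries, at 12 h without control 12 h replicate 2 and at 24 h; filled points had an adjusted p under 0.05, black bars are the median of the 82 and dashed bars the median of all 10981 tested genes. The medians of the 82 were -0.36, -0.25 and -0.13, and those of all genes -0.12, -0.10 and -0.03.

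Rps27l encodes a close paralog of the small subunit protein S27 and is known as a target of p53. At 12 h it stood at 349 and 390 FPKM with control EVs and at 248 and 232 with MPC EVs. At 24 h it stood at 382 and 365 with control EVs and at 344 and 328 with MPC EVs. The MPC EV 12 h libraries stood well below the other 6. The change at 12 h was -0.62 ± 0.075 (standard error, 2 libraries against 2, limma adjusted p = 0.00716), and -0.54 without control 12 h replicate 2 (adjusted p = 0.00359). It passed in 16 of the 19 alternatives, with changes between -0.70 and -0.44 and adjusted p between 0.000179 and 0.108. Without MPC EV 12 h replicate 2 it just missed the threshold (-0.57, adjusted p = 0.0546). Each of the other named genes that fell at 12 h passed in 4 to 8 of the 19.

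Rps27, whose product Rps27l resembles, had 1837 and 2128 FPKM with control EVs at 12 h and 1743 and 1520 with MPC EVs. At 24 h it had 2303 and 2154 with control EVs and 2048 and 2070 with MPC EVs. Its change at 12 h was -0.28 ± 0.10 and did not pass (adjusted p = 0.103). The retrotransposed copy Rps27rt was at 10.7 and 12.3 FPKM in control 12 h and 9.36 and 7.66 with MPC EVs, a change of -0.41 ± 0.24 that did not pass either (adjusted p = 0.246). Because Rps27rt is a copy of the Rps27 mRNA, reads of the pair may not be separable. The difference between Rps27l and Rps27 in their response was not tested.

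Rps9, Rps12, Rpl11 and Rpl32 are subunit genes whose changes at 12 h were among the largest that passed. Rps9 had 678 and 783 FPKM in control 12 h and 553 and 509 with MPC EVs (-0.46 ± 0.090, adjusted p = 0.0239). Rps12 had 1584 and 1852 in control and 1316 and 1187 with MPC EVs (-0.45 ± 0.097, adjusted p = 0.0291). The groups did not overlap for either gene, and both still passed without control 12 h replicate 2, at -0.35 and -0.34. Rpl32 had 1230 and 1507 FPKM in control and 1008 and 919 with MPC EVs (-0.50 ± 0.12, adjusted p = 0.0387). Rpl11, which encodes a protein known to bind MDM2 when ribosome assembly is disturbed, had 669 and 821 in control and 564 and 500 with MPC EVs (-0.48 ± 0.12, adjusted p = 0.0455). Neither Rpl32 nor Rpl11 passed without control 12 h replicate 2, with changes of -0.35 and -0.33. Rps7, Rpl4 and Rpl12 also fell with all libraries (-0.36 ± 0.078, -0.30 ± 0.074 and -0.42 ± 0.10), and of these Rps7 still passed without that library (-0.28, adjusted p = 0.0435).

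The stalk of the large subunit, which recruits elongation factors, is built from Rplp0, Rplp1 and Rplp2. Rplp0 had 1499 and 1745 FPKM in control 12 h and 1306 and 1259 with MPC EVs (-0.33 ± 0.087, adjusted p = 0.0446). Rplp1 had 3125 and 3536 in control and 2699 and 2428 with MPC EVs (-0.38 ± 0.094, adjusted p = 0.0406), but its direction turned with GC content and length regressed out (0.10, adjusted p = 0.599). Rplp2 had 689 and 887 in control and 639 and 577 with MPC EVs and did not pass (-0.36 ± 0.13, adjusted p = 0.0905). All 3 had groups that did not overlap, and none passed without control 12 h replicate 2.

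Rpsa, also called the laminin receptor, had 783 and 904 FPKM in control 12 h and 667 and 628 with MPC EVs (-0.38 ± 0.089, adjusted p = 0.0359). Rps2, a protein near the mRNA entry, had 2275 and 2608 in control and 2004 and 1849 with MPC EVs (-0.34 ± 0.089, adjusted p = 0.0457), and its change was 0.0010 with GC content and length regressed out. Rps6, the substrate of the S6 kinases downstream of mTOR, had 587 and 702 in control and 509 and 469 with MPC EVs. Its change of -0.39 ± 0.11 did not pass (adjusted p = 0.0518), although its groups did not overlap.

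Among the other paralogs, Rpl7l1, a paralog of Rpl7 that acts in ribosome assembly, had 57.2 and 62.0 FPKM in control 12 h and 49.1 and 49.8 with MPC EVs (-0.27 ± 0.067, adjusted p = 0.0415). Rpl7 itself had 603 and 643 in control and 521 and 510 with MPC EVs (-0.27 ± 0.060, adjusted p = 0.0302), and Rpl7 but not Rpl7l1 also passed without control 12 h replicate 2. Rpl22l1, a paralog of Rpl22, had 276 and 266 in control and 249 and 213 with MPC EVs and did not pass (-0.24 ± 0.082, adjusted p = 0.0901). Rpl36al, a paralog of Rpl36a, had 126 and 114 in control and 105 and 101 with MPC EVs. Its change was -0.21 ± 0.075 with all libraries (adjusted p = 0.0902) and -0.29 without control 12 h replicate 2, where it passed (adjusted p = 0.0359). Rps19bp1, whose product binds Rps19 and activates SIRT1, had 54.1 and 62.3 in control and 43.8 and 40.5 with MPC EVs (-0.46 ± 0.094, adjusted p = 0.0255).

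Some of the largest 12 h differences belonged to genes whose replicates disagreed. Rpl23a had 29.0 and 63.1 FPKM in control 12 h and 19.3 and 21.2 with MPC EVs, a change of -1.06 ± 0.47 that did not pass (adjusted p = 0.149). Rpl35 had 57.5 and 126 in control and 43.1 and 39.5 with MPC EVs, a change of -1.04 ± 0.46 that did not pass (adjusted p = 0.154). Without control 12 h replicate 2 the changes were -0.50 and -0.47. In GENCODE vM21, 62.3% of the exon bases of Rpl23a are shared with Tlcd1 and Snord42b, and 66.2% of those of Rpl35 with Arpc5l and Wdr38. The libraries were not strand-specific, so reads of such neighbours cannot be told apart from reads of these genes.

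Replicate differences had a pattern across the genes. In control 12 h replicate 1 was lower than replicate 2 for all but 3 of the 82 genes, with a median difference of -0.21 on the log2 scale. In MPC EV 12 h replicate 1 was higher for 80, with a median of 0.13. The share of all tested genes with the same replicate order was not computed. The 5 genes with a coding sequence of at most 210 bases, Rpl38, Rpl39, Rpl41, Rps28 and Rps29, differed more: their medians were -0.50 in control 12 h, 0.21 in MPC EV 12 h, 0.46 in control 24 h and 0.26 in MPC EV 24 h. For the other 77 the medians were -0.20, 0.12, 0.061 and 0.059. None of the 5 passed at 12 h, where their median change was -0.53 with all libraries and -0.25 without control 12 h replicate 2. Rps29, for example, was at 733 and 1300 FPKM in control 12 h and at 1441 and 831 in control 24 h, so that the higher library was replicate 2 at 12 h and replicate 1 at 24 h. The part of fragment length or RNA quality in these differences was not tested.

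**Figure D4:**
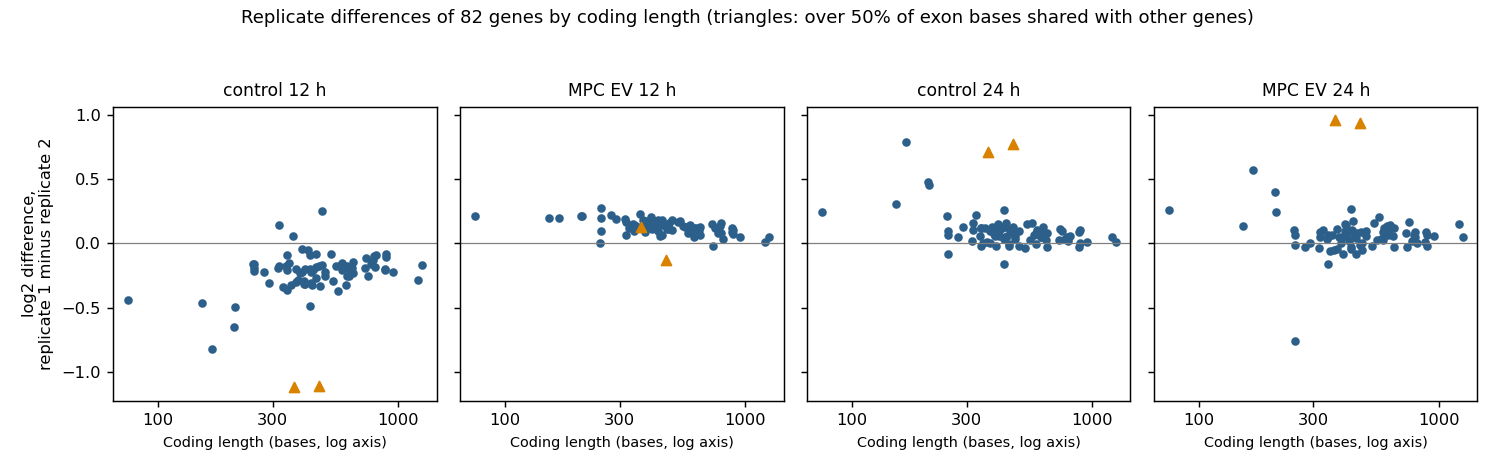
Replicate 1 minus replicate 2 on the log2(FPKM + 0.5) scale for each of the 82 genes against coding length (bases, log axis), with 1 panel per group; triangles are Rpl23a and Rpl35, with over 50% of their exon bases shared with other genes. The shortest genes and the triangles are among the lowest in control 12 h, with Rpl35 at -1.12. Most of them are among the highest in the 24 h groups, with Rpl35 at 0.71 and 0.96, but Rpl39 is at 0.13 in MPC EV 24 h, below many longer genes. Spearman's rho with coding length over the 82 genes was -0.37 in control 24 h and -0.0027 in MPC EV 24 h.

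At 24 h the comparison asks whether the difference was still there later. The genes were again mostly lower with MPC EVs, but by less, and none passed. Of the 82, 0 were called in either direction by limma, against 0.956% of all tested genes that fell and 2.61% that rose. At an unadjusted p under 0.05 there were 5, and the smallest adjusted p was 0.218, for Rpl7. The median change was -0.13 (-8.77%), against -0.03 over all genes, and 80 of the 82 were negative. Both MPC EV libraries lay below both control libraries for 61 genes, against 30.2% of all tested genes. None of the 19 alternatives brought a call at 24 h, and their medians ran from -0.18 to -0.10.

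Rps9 at 24 h had 800 and 757 FPKM in control and 716 and 675 with MPC EVs (-0.16 ± 0.090). Rplp1 had 3660 and 3508 in control and 3330 and 3255 with MPC EVs (-0.12 ± 0.094). The groups did not overlap for either gene, and the differences were within 2 standard errors. Rpl7l1 had 49.96 and 46.2 in control and 47.3 and 48.2 with MPC EVs, and its groups overlapped. Rpl21, whose groups overlapped at 12 h with all libraries, had 407 and 392 in control and 338 and 351 with MPC EVs (-0.21 ± 0.098, adjusted p = 0.418). Across the 82 genes the changes at 12 h and at 24 h had a Pearson's r of -0.48 and a Spearman's rho of -0.36, and -0.29 and -0.15 without control 12 h replicate 2, as a description over genes that share their libraries. Rpl23a and Rpl35, whose replicates disagreed, are among the 82, at -1.06 and -1.04 at 12 h and -0.08 and 0.05 at 24 h. The part of such genes in these correlations was not tested.

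The difference between the 24 h and the 12 h effect was tested directly. No gene of the 82 passed, and no gene of all 10981 did (0.0% in either direction). At an unadjusted p under 0.05 there were 3 of the 82, and the smallest adjusted p was 0.146, for Rps27l. The median difference was 0.24 (12 h more negative), against 0.11 over all genes. It was 0.12 without control 12 h replicate 2, where the median over all genes was 0.07. With GC content and length regressed out it was -0.0079. Without control 12 h replicate 1 it was 0.34, and 41 genes passed upwards and 1 downwards, against 17.8% and 15.6% of all tested genes.

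Between 12 h and 24 h the 4 groups can also be compared along time. With MPC EVs, 37 of the 82 genes rose and none fell, against 12.9% of all tested genes that rose and 5.4% that fell. The median was 0.36 (+28.2%), against 0.10 over all genes, and both 24 h libraries lay above both 12 h libraries for all genes but Rpl7l1, which was so for 47.1% of all genes. The large subunit had 19 of 45 genes that rose, the small subunit 17 of 31 and the paralogs 1 of 5. This comparison shares the MPC EV 12 h libraries with the 12 h comparison, so the same low libraries enter both. With median-ratio scaling the median was 0.26 and 5 genes rose, against 7.06% of all genes, and with GC content and length regressed out it was 0.23 and 22 rose, against 9.89%. Leaving out a library moved the count further, and the share of all genes that rose moved too. It was 73 and 72 without control 12 h replicates 1 and 2, against 25.2% and 24.8% of all genes. It was 4 without either control 24 h library (6.34% and 6.36% of all genes), 1 without MPC EV 24 h replicate 1 (2.07%) and 0 without MPC EV 24 h replicate 2 (2.2%) or without MPC EV 12 h replicate 1 (2.43%) or 2 (3.75%).

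Rps27l went from 248 and 232 FPKM to 344 and 328 with MPC EVs (0.49 ± 0.075, adjusted p = 0.00988). Rpl12, a protein at the base of the stalk, went from 666 and 586 to 937 and 875 (0.53 ± 0.10, adjusted p = 0.017). Rpl32 went from 1008 and 919 to 1509 and 1357 (0.57 ± 0.12, adjusted p = 0.0252). For each of these genes both 24 h libraries lay above both 12 h libraries, and each named gene that rose passed in 7 to 14 of the 19 alternatives. Rpl7l1 stayed at 49.1 and 49.8 at 12 h and 47.3 and 48.2 at 24 h, a change of -0.05 ± 0.067 that did not pass.

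In control myotubes over the same hours 1 of the 82 genes rose and 1 fell, against 7.54% and 10.3% of all tested genes. The gene that rose was Rpl4, from 948 and 1064 FPKM to 1224 and 1213 (0.28 ± 0.074, adjusted p = 0.0476). The gene that fell was Rpl7l1, from 57.2 and 62.0 to 49.96 and 46.2 (-0.31 ± 0.067, adjusted p = 0.026). The median was 0.13, against 0.01 over all genes, and 37 of the 82 had both 24 h libraries above both 12 h libraries, against 27.8% of all genes.

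This comparison moved with control 12 h replicate 2 and with the correction for GC content and length. With the correction 33 genes rose, against 8.76% of all tested genes, and the median was 0.27. Without control 12 h replicate 2, 23 genes rose and 1 fell, against 12.2% and 11.1% of all tested genes, and the median was 0.25 (+18.7%), against -0.0018 over all genes. Both 24 h libraries then lay above the remaining 12 h library for 79 genes, against 43.3% of all genes, the exceptions being Rpl36al, Rpl7l1 and Rps19bp1. Rpl4 was at 0.36 (adjusted p = 0.00877), and Rpl12, Rpl10 and Rps26 also rose (0.39, 0.31 and 0.33). Rpl7l1 again fell (-0.25, adjusted p = 0.0352). Without any 1 of the 6 libraries outside control 12 h neither gene passed, and over the 19 alternatives Rpl4 passed in 7 and Rpl7l1 in 11.

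Rack1, a ribosome-bound scaffold, and Fau, the precursor of S30 made with a ubiquitin-like part, are not named Rpl or Rps but belong to the ribosome. Rack1 had 262 and 297 FPKM in control 12 h and 222 and 216 with MPC EVs, and it fell (-0.35 ± 0.072, adjusted p = 0.0261). Fau had 771 and 947 in control and 652 and 611 with MPC EVs, and it fell too (-0.44 ± 0.11, adjusted p = 0.0418). At 24 h neither passed.

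Other genes of translation were read from lists drawn up for this comparison, and their counts at 12 h stand against 14.3% of all tested genes that fell and 4.36% that rose. At 12 h, 23 of 57 tested ribosome biogenesis genes fell and none rose (median -0.26), among them Nop10 (-0.66) and Nhp2 (-0.56), which are parts of the box H/ACA particles that modify ribosomal RNA, and Nop56 (-0.41), a part of the box C/D particles. Of 53 initiation factor genes 9 fell and none rose (median -0.17), among them Eif6, which keeps the subunits apart (-0.57), Eif3f (-0.38) and Eif1 (-0.37). Of 10 elongation factor genes 5 fell (median -0.28), including Eif5a (-0.44) and the kinase Eef2k (-0.78), which inhibits elongation. Of 15 RNA polymerase I genes 2 fell, Polr1d (-0.54) and Polr1c (-0.43), and 13 did not pass. Of 25 other genes with TOP mRNAs 7 fell (median -0.25), including Pabpc1 (-0.41), the poly(A)-binding protein. The lists share genes, so their counts are not separate results. Eif3f is in both the initiation and the other TOP list, and Rack1, given above, is in the other TOP list.

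These counts also moved with the fit. Without control 12 h replicate 2, 23 biogenesis, 7 initiation, 3 elongation, 1 polymerase I and 10 other TOP genes fell, against 10.4% of all genes. With median-ratio scaling the numbers were 7, 4, 3, 1 and 1, against 5.05% of all genes, and all 5 medians stayed below 0. Of 23 genes of the mTOR and MYC pathways 2 rose and 5 fell at 12 h (median -0.10). This became 3 and 2 without control 12 h replicate 2, against 5.75% and 10.4% of all genes, and with median-ratio scaling 3 rose and none fell, against 6.04% and 5.05%, and the median turned to 0.02. Deptor, an inhibitor of mTOR, rose by 0.89 ± 0.12 at 12 h (adjusted p = 0.00823) and by 0.60 ± 0.12 at 24 h (adjusted p = 0.0496), and Max (-0.33) and Akt1s1 (-0.31) fell at 12 h, though not with median-ratio scaling. At 24 h no gene of the other lists passed with all 8 libraries. The lowest 24 h change was -0.62 in both the biogenesis and the other TOP list, so the same gene may be counted in each. The biogenesis, initiation, elongation and other TOP lists each had 1 gene that fell at 24 h without control 12 h replicate 2, against 2.94% of all genes, while 5.32% of all genes rose.

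**Figure D5:**
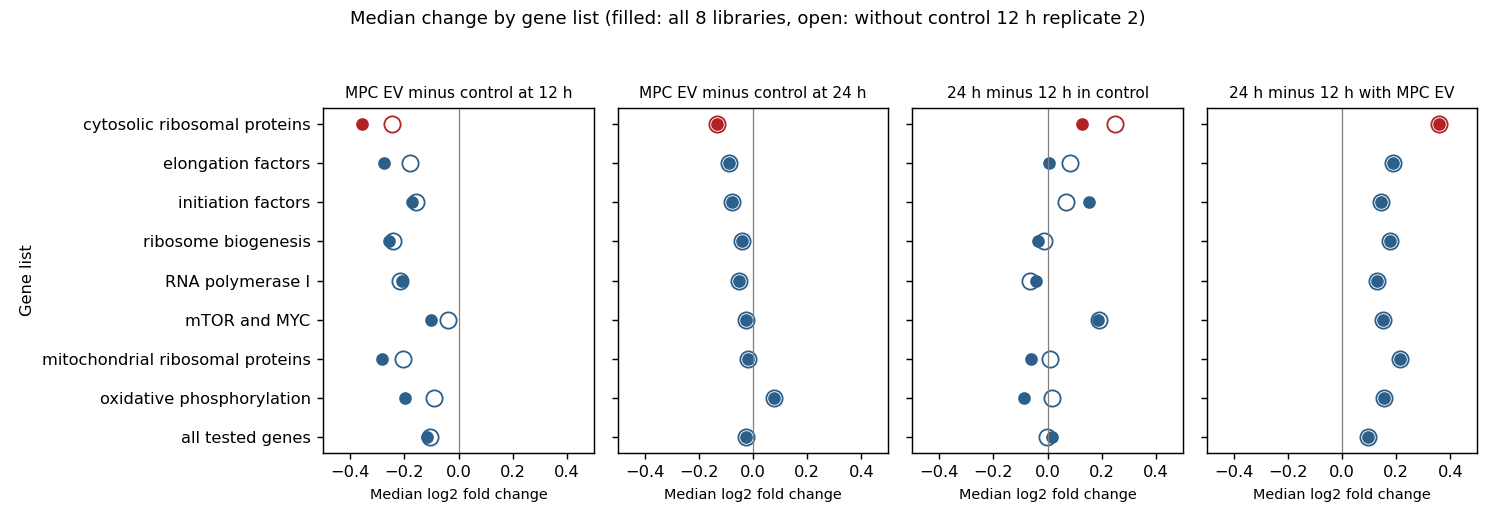
Median log2 fold change of the cytosolic ribosomal protein genes (red) and of 8 other sets of genes (blue) in 4 comparisons, with all 8 libraries (filled) and without control 12 h replicate 2 (open). The ribosomal protein genes had the lowest median of the 9 sets for MPC EV minus control at 12 h, at -0.36, and the highest for 24 h minus 12 h with MPC EVs, at 0.36.

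Markers of cell types moved with the groups too. The summed level of the 8 myotube markers was 13661 and 15830.1 FPKM in the control 12 h libraries and 16897 and 17538 with MPC EVs at 12 h. At 24 h it was 9517 and 9916 in control and 12849.5 and 14208 with MPC EVs, so that the summed level lay higher with MPC EVs at both times. Single markers differed: at 12 h Actc1 stood at 1576 and 1923 in control and 3276 and 3119 with MPC EVs, and Myh3 at 409 and 463 against 1231 and 1234. Myog was at 2872 and 3290 in control and lower, at 2828 and 2799, with MPC EVs, and the groups overlapped for Mymk, Acta1 and Tnnt3. The 5 progenitor markers summed to 772 and 829 in control 12 h, 741 and 779 with MPC EVs, 535 and 544 in control 24 h and 560 and 572 with MPC EVs. Most of each sum was Myod1, at 615 and 664 in control 12 h and 549 and 574 with MPC EVs. Other members went the other way at 12 h: Cdh15 stood at 90.3 and 98.2 in control and 115 and 116 with MPC EVs, and Sdc4 at 54.6 and 56.8 against 66.1 and 75.7. Pax7 and Myf5 overlapped between these groups. In control, Myf5 was at 7.48 and 5.39 at 12 h and higher, at 15.1 and 14.6, at 24 h. The 5 fibroblast markers summed to 8.96 and 9.09 in control 12 h and 4.44 and 6.001 with MPC EVs. The part of these markers in the ribosomal protein results was not tested, and in bulk RNA a different mixture of cells cannot be told apart from a different amount of RNA per cell.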

How the data were processed

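RNA-seq was done on 8 libraries of mouse primary myotubes, 2 in each of 4 groups. Per the labels' protocols, EVs were isolated by a polymer-based method and libraries were paired-end and not strand-specific. The authors deposited FPKM values, 1 column per library, for 35275 genes. The tools HISAT2 and DESeq2 (version 2) and the build mm10 are named per the submitters' processing notes, with no role. The sources used here name no counting tool, annotation or scaling. FPKM is relative to the library total, so a change in abundant mRNAs moves the other values.

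Ensembl IDs were given symbols and exons from GENCODE vM21. Depth was read from steps of low values, of which 49.8% to 53.9% were whole fragments within 0.02. Counts were therefore not recovered and no count test was run. The 10981 genes whose mean reached 1 FPKM were fitted in limma 3.58.1 (R 4.3.3) on log2(FPKM + 0.5) (4 group means, 4 residual degrees of freedom, eBayes with trend), two-sided, with Benjamini-Hochberg adjustment over all of them and a threshold of 0.05. The scale understates changes of low genes. The fit was tested on simulated data. Python 3.11.15, pandas 2.3.3, numpy 2.4.6 and matplotlib 3.10.9 made the tables and figures.

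The members, lists and tests were chosen with earlier results of these data known. Named genes are, among the tested members, the 5 largest changes in each direction per comparison that passed, the 5 highest and 5 lowest levels, paralogs with their partners, the stalk genes, Rpsa, Rps6 and the 5 with the lowest p for the change in effect between times. Up to 3 genes were named from each list. Some genes this rule names are not reported here. Rpl21, Rpl38, Rps26, Rps28, Rps29, Rpl9 and Rps4x were named after their values were seen. The 19 alternatives per comparison were 2 other pseudocounts, 2 other filters, median-ratio scaling, quantile normalization, a regression of each library's deviations on GC content and transcript length, no trend, the replicate number as a term, the compared libraries alone, each library left out, and control 12 h replicate 2 left out together with median-ratio scaling.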

Additional observations from a re-analysis of the deposited data

How the results depend on the processing

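With MPC EVs at 12 h, 38 genes fell in the fit to all libraries, and percentages in brackets give the share of all tested genes called in the same fit and direction. The number was 48 with a mean of at least 5 FPKM (20.1%), 3 with no filter on low values (4.75%), 1 with median-ratio scaling (5.05%), 12 after quantile normalization (6.8%), 1 with the correction for GC content and length (6.17%), 14 with no variance trend (12.0%), 0 with the compared libraries alone (0.082%) and 1 with median-ratio scaling and without control 12 h replicate 2 (4.42%). Leaving out 1 library gave 0 to 78 (1.29% to 31.8%). The median change of the 82 genes was -0.23 with median-ratio scaling, -0.18 after quantile normalization, -0.14 with the correction and -0.14 with median-ratio scaling without control 12 h replicate 2, and -0.45 to -0.25 when 1 library was left out. It stayed negative in all 19 alternatives. These medians are not relative to all genes, whose own median was -0.12 in the fit to all libraries.

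The median difference of the effects was 0.070 with quantile normalization, -0.0079 with the correction and 0.030 with median-ratio scaling without control 12 h replicate 2, and 0.12 to 0.34 when 1 library was left out, with 0 to 41 genes higher (0.0% to 17.8%) and 0 to 1 lower (0.0% to 15.6%).

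Over time in control, the number that rose was 0 with no filter (3.14%), 22 with quantile normalization (7.01%), 33 with the correction (8.76%, median 0.27), 0 with no variance trend (7.21%), 0 with the compared libraries alone (1.43%) and 13 with median-ratio scaling without control 12 h replicate 2 (12.0%, median 0.24). The number that fell was 0 with the compared libraries alone (2.94%). Leaving out 1 library gave 0 to 23 that rose (1.68% to 22.7%) and 0 to 2 that fell (3.11% to 18.4%), and medians of 0.023 to 0.25.

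Over time with MPC EVs, the number that rose was 4 with no filter (4.59%), 5 with median-ratio scaling (7.06%), 22 with the correction (9.89%), 20 with no variance trend (11.4%) and 70 with the compared libraries alone (19.9%). The median was 0.26 with median-ratio scaling, 0.24 after quantile normalization and 0.23 with the correction. Leaving out 1 library gave 0 to 73 that rose (2.07% to 25.2%) and medians of 0.30 to 0.43.

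The replicate block, a term for the replicate number, left 0 of the 82 genes called in every comparison, where at most 2.0% of all genes were called in a direction. Whether equal replicate numbers mark paired samples is not stated in the sources used here. Over all tested genes, the correlation of same-numbered deviations between control and MPC EV was -0.01 at 12 h and 0.24 at 24 h. These values cannot settle whether the samples are paired. Of the values of named results under the alternatives, 255 kept their call, 351 lost it in the same direction and 2 reversed, both at 12 h under the correction: Rplp1 (0.10, adjusted p = 0.599) and Rps2 (0.0010, adjusted p = 0.995). With 4 residual degrees of freedom or fewer, a lost call says little about the size of a change, and the causes of these shifts were not tested.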

Other observations

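The ribosome of mitochondria is encoded by a separate set of nuclear genes. Of 76 tested mitochondrial ribosomal protein genes 25 fell with MPC EVs at 12 h and none rose (median -0.28), against 14.3% and 4.36% of all tested genes, among them Mrps21 (-0.44 ± 0.061, limma adjusted p = 0.00949), Mrps12 (-0.51 ± 0.078) and Mrps17 (-0.38 ± 0.063). With control 12 h replicate 2 left out, 16 fell (median -0.20), against 10.4% of all genes, and with median-ratio scaling 6 did (median -0.16), against 5.05%. At 24 h none passed and the median was -0.02. Over time with MPC EVs 15 rose (median 0.21), against 12.9% of all genes. This number was 32 without control 12 h replicate 2, against 24.8%, and 7 with median-ratio scaling, against 7.06%. In control 2 rose and 5 fell (median -0.06), against 7.54% and 10.3%. Those numbers were 4 and 4 without control 12 h replicate 2, against 12.2% and 11.1%, with a median of 0.0085.

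Of 76 tested nuclear genes of oxidative phosphorylation 3 fell at 12 h, a smaller share than the 14.3% of all genes, the complex I subunits Ndufc2 (-0.43 ± 0.078), Ndufa3 (-0.33 ± 0.083) and Ndufa7 (-0.36 ± 0.094), and none rose. The number that fell was 1 under median-ratio scaling, against 5.05% of all genes. When control 12 h replicate 2 was left out, the median was -0.09, against -0.10 over all genes. At 24 h none passed with all 8 libraries, with a median of 0.08. None of the 12 tested mRNAs encoded by mitochondrial DNA passed at 12 h, and their median of 0.49 became -0.13 without control 12 h replicate 2.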
